A study of Mus musculus with 10 samples.

Results

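The genes described here load glutamate or GABA into synaptic vesicles, make GABA or take it up again. They were taken by symbol from a table of counts per gene: the vesicular glutamate transporters Slc17a7, Slc17a6 and Slc17a8, the vesicular GABA transporter Slc32a1, the glutamate decarboxylases Gad1 and Gad2, and the GABA transporter Slc6a11. All 7 were found among the 54532 genes of the table, and all 7 were among the 17665 genes that passed the filter on low counts. The RNA came from a portion of the brain of each of 10 mice, the rest having been fixed. All mice of both groups were homozygous for a knockout of Slc20a2, a phosphate transporter gene, carried as the tm1a(EUCOMM)Wtsi allele. FTY720, a modulator of sphingosine-1-phosphate receptors, was given to 6 mice at 0.5 mg/kg from 1.5 months of age, 3 times a week for 12 weeks, and 4 placebo mice received dimethyl sulfoxide alone. Wild type brain was not analysed here, so the values speak only of mice with this knockout allele. Each mouse's name has a 1 or a 3 after the letter of its group. The digit 3 was carried by 3 FTY720 and 3 placebo mice (F3-609, F3-612, F3-908, P3-612, P3-904 and P3-907), and the digit 1 by 3 FTY720 mice and 1 placebo mouse (F1-622, F1-624, F1-918 and P1-623). What the digit stands for is not given in the sources used here.

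Glutamate is the main excitatory transmitter of the brain and GABA the main inhibitory one. A neuron that releases glutamate carries at least one vesicular glutamate transporter, of which Slc17a7 (VGLUT1) prevails in the cortex, the hippocampus and the granule cells of the cerebellum, and Slc17a6 (VGLUT2) in the thalamus, hypothalamus and brainstem. Slc17a8 (VGLUT3) is found in few neurons, many of which also release another transmitter. GABA neurons make GABA from glutamate with Gad1 (GAD67) and Gad2 (GAD65) and load it with Slc32a1 (VGAT), which also loads glycine. After release, GABA is taken up again, in part by Slc6a11 (GAT-3), a transporter found mainly on astrocytes.

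The libraries were of like depth, with 14772745 to 18303981 counts per mouse, so counting error was small beside the spread between mice for all members but Slc17a8, which had 45 to 93 counts. Slc20a2 itself had 89 to 294 counts per mouse, in a whole-gene count that does not separate the targeted part. All 8 neuron markers were present in every library, with a summed level of 5460 to 6180 CPM, the counts scaled by library size. The first principal component of all genes accounted for 46.8% of the variance and set the digits apart, P3-612 lying nearest to the digit 1 mice. All 12 cerebellum markers were higher in digit 3 mice, where their summed level was 2490 to 3140 CPM against 815 to 938 CPM in digit 1 mice. Gabra6, a GABA receptor subunit of cerebellar granule cells, was at 148 ± 14.9 CPM (SD, n = 6) in digit 3 mice and at 0.109 ± 0.0875 CPM (SD, n = 4) in digit 1 mice. Both sets carry the label brain. Libraries also differed in how their gene levels followed the GC content of transcripts. The Spearman correlation of a library's deviations with GC content, across 17647 genes that are not independent of each other, ran from -0.564 in F3-609 to 0.487 in P1-623.

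On the mouse genome GRCm38, Slc17a7 lies on chromosome 7 from 45163949 to 45176142 and Slc17a6 on chromosome 7 from 51622006 to 51671119. Slc32a1 lies on chromosome 2 from 158610767 to 158615748, Gad1 on chromosome 2 from 70553072 to 70602014 and Gad2 on chromosome 2 from 22622205 to 22693874. All of these are on the plus strand, as is Slc6a11 on chromosome 6 from 114131241 to 114249952, while Slc17a8 is on the minus strand of chromosome 10 from 89574020 to 89621253. Of the genes that overlap members, Gad1os, antisense to Gad1, had the most counts with 2 to 7 per mouse, against 7121 or more for Gad1. The strand setting of the counting is not given in the sources used here, and without strand the reads of Gad1 and Gad1os cannot be told apart.

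The 250 bases upstream of the RefSeq transcription start are shown for the members whose levels differed between the digits, from the GRCm38.p6 table and 5′ to 3′ on the plus strand. Capitals mark GGGCGG or its reverse complement CCGCCC, the core of the GC box bound by Sp family factors. The windows are chr7:45163671-45163920 for Slc17a7, chr7:51621580-51621829 for the first start of Slc17a6 and chr2:158610508-158610757 for Slc32a1.
Slc17a7: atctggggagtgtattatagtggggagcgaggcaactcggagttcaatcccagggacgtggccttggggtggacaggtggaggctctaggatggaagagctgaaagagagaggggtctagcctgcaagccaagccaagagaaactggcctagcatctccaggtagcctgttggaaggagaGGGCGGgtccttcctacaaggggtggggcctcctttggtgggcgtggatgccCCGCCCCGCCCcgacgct
Slc17a6: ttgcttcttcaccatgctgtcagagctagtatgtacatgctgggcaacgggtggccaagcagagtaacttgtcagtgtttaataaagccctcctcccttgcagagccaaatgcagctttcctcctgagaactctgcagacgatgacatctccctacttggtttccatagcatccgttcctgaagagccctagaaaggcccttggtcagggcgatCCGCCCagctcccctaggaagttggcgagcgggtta
Slc32a1: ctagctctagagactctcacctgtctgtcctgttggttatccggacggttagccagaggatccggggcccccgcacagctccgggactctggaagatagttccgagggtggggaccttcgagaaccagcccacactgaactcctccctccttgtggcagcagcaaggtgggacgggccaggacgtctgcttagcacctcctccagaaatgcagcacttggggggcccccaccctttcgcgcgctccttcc
The motif was present in the Slc17a7 window and in the window of the first Slc17a6 start, and not in that of the second Slc17a6 start (chr7:51624387-51624636) or of Slc32a1, and 32.7% of the 32851 mouse windows of this length hold it on either strand. The letters of the E-box CACGTG, searched in the same way, were in none of these windows, and 6.02% of all windows hold them.

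The members spanned a wide range of levels per length. In FPKM, the deposited fragments scaled to gene length and library total, the mean over the 10 mice was 125 ± 31.7 (SD) for Slc17a7, 65.0 ± 6.13 for Gad1, 58.8 ± 8.74 for Slc6a11, 48.3 ± 5.42 for Gad2, 45.3 ± 6.53 for Slc32a1, 20.2 ± 2.25 for Slc17a6 and 0.881 ± 0.206 for Slc17a8. Slc17a7 stood above the other members in every mouse, from 76.8 to 169 FPKM, and Slc17a8 below them, from 0.614 to 1.21 FPKM. From Gad1 down to Slc32a1, the ranges of neighbours in this order overlapped, and the lowest Slc32a1 value, 35.4 FPKM, was above the highest of Slc17a6, 24.8 FPKM. Slc17a7 made up 81.9% ± 3.65 (SD, n = 6) of the summed FPKM of the 3 vesicular glutamate transporters in digit 3 mice and 89.1% ± 1.40 (SD, n = 4) in digit 1 mice.

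**Figure D1:**
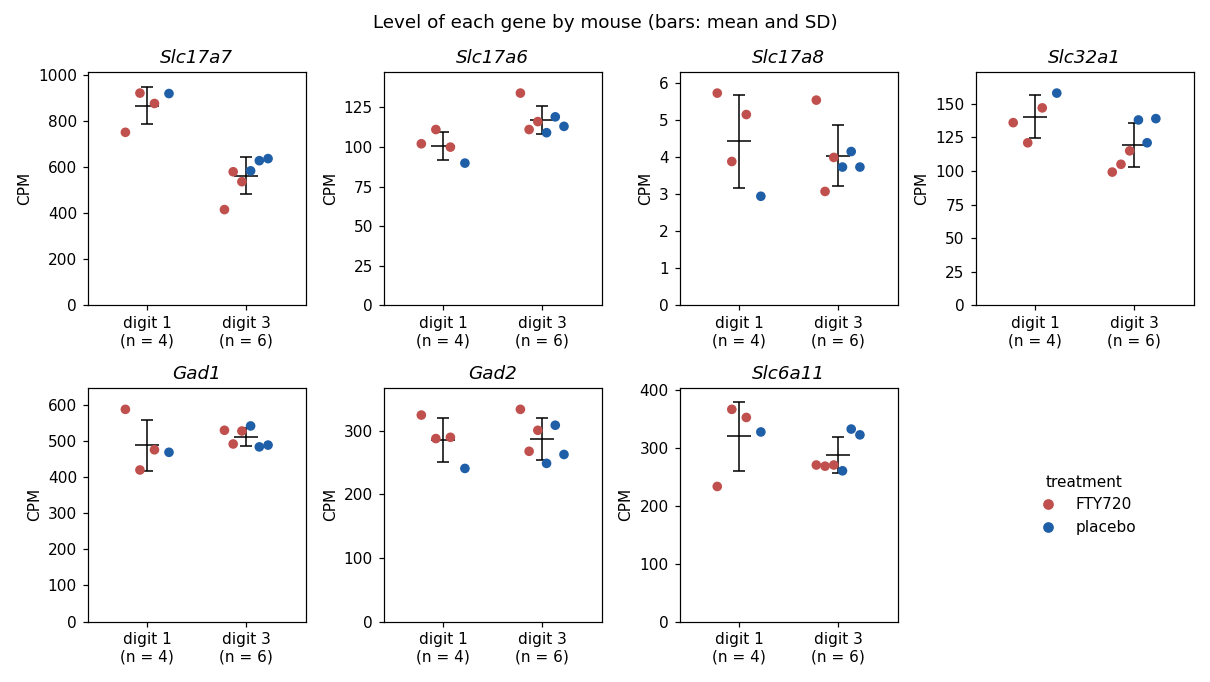
Level of each of the 7 genes in CPM by mouse, with mice grouped by the digit in their name and coloured by treatment, and with the mean and SD of each digit. Slc17a7 lies between 415 and 636 CPM in the 6 digit 3 mice and between 750 and 920 CPM in the 4 digit 1 mice, and the digits overlap for the other 6 genes.

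The first comparison was between the digits, with treatment as a covariate. Slc17a7 was lower in digit 3 mice, Slc32a1 was lower by a smaller amount, and Slc17a6 was higher. Slc17a8, Gad1, Gad2 and Slc6a11 did not pass the test. The count of 3 of 7 members called stands beside 28.4% of all genes tested, of which 13.9% were called higher and 14.4% lower, so that a call between the digits was common among all genes. With only the 6 FTY720 mice, 1 of 7 members was called, Slc17a7, beside 17.7% of all genes.

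Slc17a7 was at 415, 579, 536, 583, 627 and 636 CPM in the digit 3 mice F3-609, F3-612, F3-908, P3-612, P3-904 and P3-907. In the digit 1 mice F1-622, F1-624, F1-918 and P1-623 it was at 750, 920, 875 and 918 CPM. Every digit 1 mouse was above every digit 3 mouse, a separation that 14.2% of all genes tested showed in one direction or the other. The log2 fold change was -0.68 (SE 0.11, adjusted p = 0.000842, Benjamini-Hochberg over all genes tested, edgeR's quasi-likelihood fit), or 0.623-fold. The exact permutation test of mean log2 CPM gave p = 0.00476 (two-sided), the smallest that 210 splits of the mice allow. Among the FTY720 mice alone the log2 fold change was -0.73 (SE 0.15, adjusted p = 0.00688). With the trends of each library on GC content and transcript length removed, an alternative described further on, it was smaller, at -0.38 (SE 0.09, adjusted p = 0.00893).

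Slc17a6 ran the other way. It was at 134, 111, 116, 109, 119 and 113 CPM in the digit 3 mice, in the same order as above, and at 102, 111, 99.9 and 89.8 CPM in the digit 1 mice. The digits overlapped, since F1-624 lay among the digit 3 mice, and F3-609 had the highest level of all. The log2 fold change was 0.25 (SE 0.09, adjusted p = 0.0459), with an exact permutation p of 0.019. This call was close to the threshold, and it was lost among the FTY720 mice alone, at 0.21 (adjusted p = 0.259), without the filter on low counts (adjusted p = 0.189), without treatment as a covariate (adjusted p = 0.102), with the leading digit of the mouse number as a further covariate (adjusted p = 0.0731) and in 7 of the 10 fits that left out a mouse. With GC and length trends removed in the same way, Slc17a6 was at 0.00 (adjusted p = 0.968).

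Slc17a8 was at 3.08 to 5.55 CPM in digit 3 mice and at 2.95 to 5.74 CPM in digit 1 mice. The groups overlapped throughout, with a log2 fold change of -0.04 (SE 0.21, adjusted p = 0.913). The interval of 2 standard errors around it ran from -0.46 to 0.39. Removal of the GC and length trends gave a log2 fold change of -0.27 (adjusted p = 0.363).

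The balance of the 2 main vesicular glutamate transporters was also compared within each library, as a ratio that does not depend on library scaling. The Slc17a6 over Slc17a7 ratio of FPKM was 0.323, 0.191, 0.217, 0.187, 0.189 and 0.178 in the digit 3 mice and 0.135, 0.121, 0.114 and 0.0976 in the digit 1 mice. All digit 3 mice were above all digit 1 mice, and F3-609 stood highest. The ratio is not independent of the level of Slc17a7, which separated the digits on its own, while Slc17a6 overlapped. The mean log2 ratio was -2.26 ± 0.32 (SD, n = 6) against -3.11 ± 0.20 (SD, n = 4), a 1.80-fold difference with an exact permutation p of 0.00476 (adjusted p = 0.0381 over 8 tests of 4 ratios, 3 of which are reported). Among the FTY720 mice alone, the difference was 0.95 with an exact permutation p of 0.1, the smallest that 3 against 3 mice allow. After removal of the same trends, the difference was 0.39 on the log2 scale in place of 0.85 (exact permutation p = 0.0143, adjusted p = 0.0381), and the digits overlapped.

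**Figure D2:**
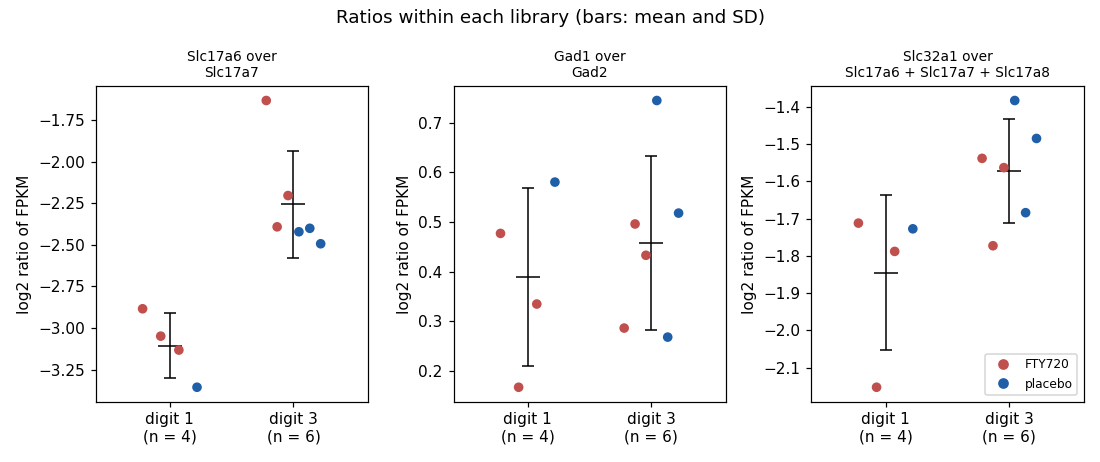
The log2 ratios of FPKM within each library for 3 pairs of genes or sums, by mouse and digit, coloured by treatment, with the mean and SD of each digit. The Slc17a6 over Slc17a7 ratio separates the 6 digit 3 mice, all at -2.49 or above, from the 4 digit 1 mice, all at -2.88 or below, and the digits overlap in the other 2 ratios.

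Slc32a1, which loads GABA and glycine into vesicles, was at 99.2, 105, 115, 138, 121 and 139 CPM in the digit 3 mice and at 136, 121, 147 and 158 CPM in the digit 1 mice. The digits overlapped: the 3 digit 3 mice with FTY720 were below every digit 1 mouse, while the 3 with placebo lay between 121 and 139 CPM. The log2 fold change was -0.31 (SE 0.09, adjusted p = 0.0225), and the exact permutation test without the covariate gave p = 0.1. The call was lost without treatment as a covariate (adjusted p = 0.162), among FTY720 mice alone, at -0.34 (adjusted p = 0.0798), and in 4 of the 10 fits that left out a mouse. With GC and length trends removed, the direction turned, at 0.12 (adjusted p = 0.162).

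The enzymes that make GABA were not called between the digits. Gad1 was at 484 to 542 CPM in digit 3 mice and 420 to 588 CPM in digit 1 mice, with a log2 fold change of 0.08 (SE 0.10, adjusted p = 0.595), and 0.02 (without F1-624) to 0.17 (without F1-622) with a mouse left out. Gad2 was at 249 to 334 CPM and 241 to 325 CPM, with a log2 fold change of 0.06 (SE 0.10, adjusted p = 0.686), and 0.001 (without P1-623) to 0.12 (without F3-612) with a mouse left out. With GC and length trends removed, the direction of Gad2 turned, at -0.22 (adjusted p = 0.0912). The digits overlapped for both genes. The Gad1 over Gad2 ratio of FPKM lay between 1.12 and 1.68 in all 10 mice and did not separate the digits (exact permutation p = 0.562). Once these trends were removed, the log2 ratio did separate them, being higher in digit 3 mice by 0.26 (exact permutation p = 0.00476, adjusted p = 0.019), against 0.07 with the trends kept. A ratio chosen after its values were seen, Slc32a1 over the sum of Gad1 and Gad2, ranged from 0.281 in F3-609 to 0.552 in P1-623 and is given without a test. The Slc32a1 level per FPKM of the summed vesicular glutamate transporters differed between digit 3 and digit 1 mice by 0.27 on the log2 scale, with an exact permutation p of 0.0238 that did not hold after adjustment (0.0952). Without the trends, the difference was 0.44 and the digits did not overlap (exact permutation p = 0.00476, adjusted p = 0.019).

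Slc6a11 was at 270, 268, 270, 260, 332 and 322 CPM in the digit 3 mice and at 233, 366, 352 and 327 CPM in the digit 1 mice. F1-622 was the lowest of all mice and the other digit 1 mice were among the highest, so the digits overlapped. The log2 fold change was -0.19 (SE 0.13, adjusted p = 0.275). It ran from -0.30 (adjusted p = 0.0515 without F1-622) to -0.11 (without F1-624) with a mouse left out, and was -0.13 without F1-918. Removal of the GC and length trends gave -0.07.

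The GC content of the members' transcripts differed widely, and the levels of several followed the GC trend of the libraries. The longest coding transcript of Slc32a1 has a GC content of 61.9%, above that of 97.9% of the genes tested, and that of Slc17a7 58.5%. Gad1 is at 48.4%, near the median of 49.8%, and Gad2 at 44.1%, Slc17a8 at 44.0% and Slc17a6 at 42.9% are lower. The 3 digit 3 mice with FTY720 and P3-904 had negative correlations with GC content, from -0.564 to -0.223, and 3 of these 4 mice had the lowest Slc32a1 of all 10. The 2 mice with the strongest positive trends, P1-623 and F1-918 (0.487 and 0.444), had the highest Slc32a1 of all. Slc17a7 also differed between mice of like trend. F1-622 and F1-624, at 0.085 and 0.134, had 750 and 920 CPM, and P3-907 and P3-612, at 0.133 and 0.158, had 636 and 583 CPM. After trends on GC content and transcript length were removed from each library, an alternative chosen after seeing the data, the call of Slc17a7 held at -0.38 in place of -0.68, those of Slc32a1 and Slc17a6 ended, and 2 further ratios passed the threshold, as given above. Such a correction also removes any biological difference that happens to follow GC content, and the part of either in these values was not tested.

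**Figure D3:**
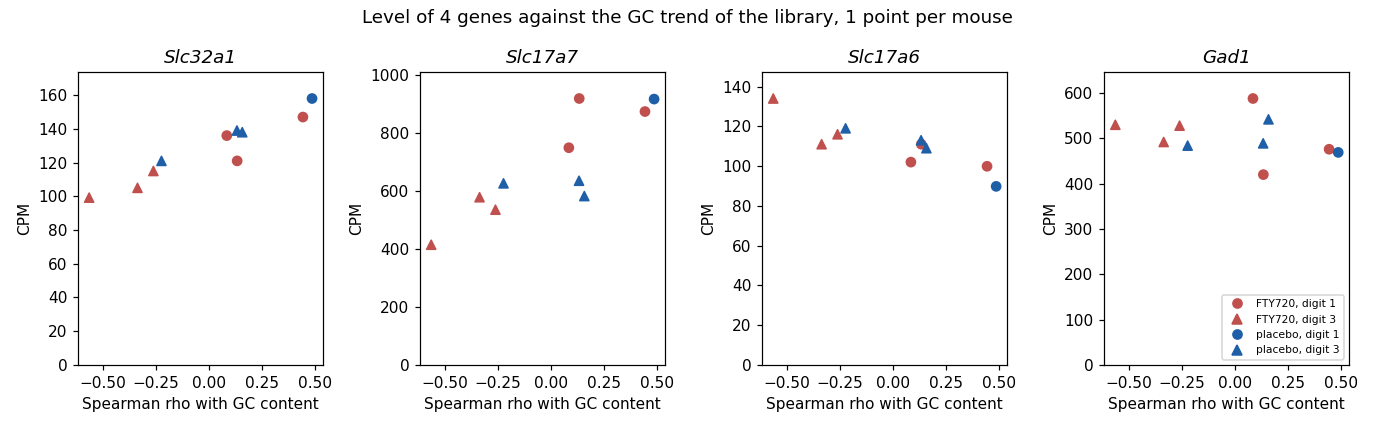
Levels of Slc32a1, Slc17a7, Slc17a6 and Gad1 in CPM against the Spearman correlation of each library's deviations with transcript GC content, 1 point per mouse, coloured by treatment and shaped by digit. Slc32a1 runs from 99.2 CPM at -0.564 to 158 CPM at 0.487. Where the trends of the digits overlap, Slc17a7 is at 750 and 920 CPM in F1-622 and F1-624 and at 636 and 583 CPM in P3-907 and P3-612. The part of the GC trend in these levels was not tested.

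Other genes of the same pathways were compared between the digits from lists written for this purpose. Their counts stand beside 13.9% of all genes tested called higher and 14.4% called lower. Of 15 genes of glutamate uptake, recycling and metabolism, 4 were higher, 2 lower and 9 not called, with a median log2 fold change of 0.06 beside -0.01 for all genes tested. Slc1a6, the glutamate transporter of Purkinje cells, was higher at 1.46 (SE 0.11), as were the glutamine transporters Slc38a1 at 0.59 and Slc38a2 at 0.57. Of 6 genes of GABA uptake and breakdown, 1 was called, the aldehyde reductase Akr7a5, lower at -0.64 (SE 0.16). Of 6 tested transporters for other vesicular cargo and for glycine, 2 were higher and 1 lower. Slc6a5, the transporter of glycine neurons, was at 50.7 ± 8.70 CPM (SD, n = 6) in digit 3 mice and 0.365 ± 0.200 CPM (SD, n = 4) in digit 1 mice, and the vesicular monoamine transporter Slc18a2 was higher at 0.45. The vesicular zinc transporter Slc30a3 was lower at -0.69 (SE 0.11), a fold change close to that of Slc17a7. Neither of the 2 other SLC17 genes tested was called.

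Of 22 genes of synaptic vesicles and release, 4 were higher and 8 lower, beside 13.9% and 14.4% of all genes tested. Syt2 at 1.63 and Vamp1 at 0.73, a calcium sensor and a vesicle fusion protein, were higher, and Stx1a at -0.84 and Syn1 at -0.40, a fusion protein of the membrane and a vesicle phosphoprotein, were lower. Of 17 genes that mark GABA neurons, 13 were lower and 2 higher, with a median of -0.82. The transcription factors Dlx1 at -0.95 and Sp9 at -1.07 were lower, and Pvalb, a calcium buffer of fast-spiking interneurons and of Purkinje cells, was higher at 1.42. Most of this list differed while Gad1 and Gad2 were not called. Of 8 genes of striatal projection neurons, 7 were lower, among them Rgs9 at -0.45 and Ppp1r1b at -0.72.

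Markers of brain regions also differed between the digits, not all in one direction. The counts of the region and cell type lists stand beside 13.9% of all genes tested called higher and 14.4% called lower. Of 12 genes of cortical and hippocampal excitatory neurons, 8 were lower and 1 higher in digit 3 mice, with Emx1 at -1.25, Nrgn at -0.99, Fezf2 at -0.72 and Tbr1 at -0.51, and their summed level was 1990 to 2600 CPM against 3010 to 3930 CPM in digit 1 mice. Camk2a and Nrgn stood highest in that sum, with means of 1460 and 522 CPM in digit 3 mice and 2240 and 947 CPM in digit 1 mice. F3-609 had the lowest sum of all mice, 1990 CPM, and also the lowest Slc17a7, and F1-624 had the highest of both. How far the sum and Slc17a7 go together over the mice was not tested. Of 12 cerebellum genes, 12 were higher, among them Cbln3 at 8.76 and Car8 at 4.60. Of 6 tested hindbrain genes, 5 were higher, their summed level being 15.8 to 31.8 CPM against 2.16 to 4.38 CPM, and Hoxa2, Hoxb3 and Hoxb5 were at 0 in every digit 1 mouse. Of 7 thalamus genes, 1 was higher, Rora at 0.89, 1 lower, Gbx2 at -0.75, and 5 not called. The median of the 7 was -0.16, while their summed level was higher in digit 3 mice, at 458 to 506 CPM against 370 to 415 CPM, with no overlap. Only Rora and Calb2 had a higher mean in digit 3 mice, at 165 against 92.5 CPM and 130 against 98.0 CPM. The other thalamus genes had a lower mean there. Of 9 astrocyte genes, the cells that carry most Slc6a11, 4 were higher and 1 lower, and their summed level overlapped between the digits at 2850 to 3250 CPM and 2680 to 3080 CPM. Of the remaining lists, 1 of 8 neuron genes was higher and 2 lower, 1 of 8 oligodendrocyte genes, 6 of 8 microglia genes and 1 of 7 choroid plexus genes were lower, and 2 of 8 endothelial genes were higher. In RNA of whole tissue, fewer cells of a type and less RNA per cell cannot be told apart, and the part of these regions in the members' values was not tested.

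**Figure D4:**
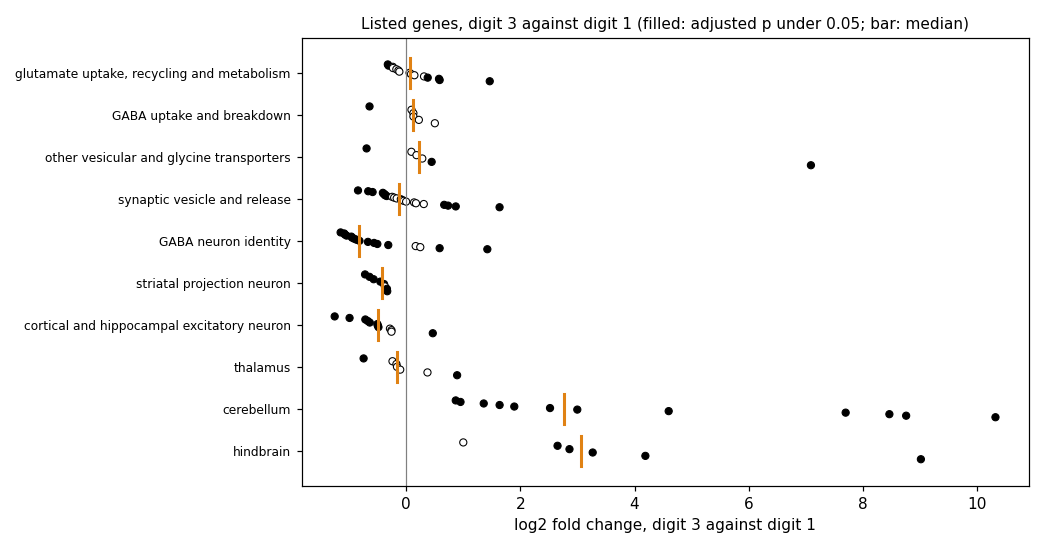
Log2 fold changes of the tested genes of 10 lists between digit 3 and digit 1 mice, 1 point per gene, filled where the adjusted p was under 0.05, with the median of each list as a bar. All 12 cerebellum genes and 5 of 6 hindbrain genes are filled and to the right of 0, and 13 of 17 GABA neuron genes and 8 of 12 cortical and hippocampal genes are filled and to the left.

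The study's own comparison was between FTY720 and placebo. None of the 7 members passed the adjusted threshold, nor did any other gene tested (0.0% of 17665), and none had an unadjusted p under 0.05, beside 2.61% of all genes (461 with edgeR, 550 with DESeq2). All 7 adjusted p-values from edgeR's quasi-likelihood test were 0.99992. Slc17a7 was at 679 ± 201 CPM (SD, n = 6) in FTY720 mice and at 691 ± 153 CPM (SD, n = 4) in placebo mice, a log2 fold change of -0.02 whose interval of 2 standard errors ran from -0.46 to 0.41. Slc17a6 was at 112 ± 12.4 CPM and 108 ± 12.6 CPM, with an interval from -0.17 to 0.29. Slc17a8 measured 4.57 ± 1.06 CPM with FTY720 against 3.65 ± 0.51 CPM, and its log2 fold change of 0.32 had an interval from -0.10 to 0.74. In digit 3 mice alone, that of Slc17a8 was 0.13 (SE 0.25). The difference of Slc17a7 between the digits, -0.68, lay outside its interval for treatment, and that of Slc17a6, 0.25, lay within its own. Both intervals are from the fit without the digit. With the digit as a covariate, Slc17a7 was at -0.22 for treatment (unadjusted p = 0.0607 and adjusted p = 0.41 from edgeR's model), with an interval from -0.43 to -0.01. In that fit Slc17a6 was at 0.13, with an interval from -0.05 to 0.30.

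Among the GABA genes, Slc32a1 was at 121 ± 18.3 CPM in FTY720 mice and 139 ± 15.2 CPM in placebo mice, a log2 fold change of -0.21 (SE 0.13) with an exact permutation p of 0.138. With GC and length trends removed, it was -0.01. Gad1 was at 506 ± 57.1 CPM and 496 ± 31.9 CPM, with an exact permutation p of 0.843. Gad2 measured 301 ± 24.7 CPM with FTY720 against 265 ± 30.2 CPM, and its log2 fold change of 0.18 (SE 0.11) came with an exact permutation p of 0.0762. With those trends removed, it was 0.09, and 0.03 with the digit as a covariate as well. Slc6a11 was at 293 ± 53.2 CPM and 310 ± 33.9 CPM, with an exact permutation p of 0.514. The groups overlapped for all of these genes. None of the 3 ratios reported passed the threshold between the treatments, with adjusted p-values of 0.286 to 0.738 from the exact permutation test. Of the genes of GABA uptake and breakdown, 1 of 6 had an unadjusted p under 0.05, the transporter Slc6a13 at -0.35 (unadjusted p = 0.0481, edgeR's model across all genes), and of the glutamate, vesicle, GABA neuron and region lists none had. Outside these pathways, 5 of 8 oligodendrocyte genes had such a p and a negative fold change, those with the smallest p being Olig2 at -0.56, Mag at -0.46, Cnp at -0.35 and Mbp at -0.29. Of 8 endothelial genes, 3 had such a p and a positive fold change, Ly6c1 at 0.46, Pecam1 at 0.43 and Slco1a4 at 0.61. None of these passed the adjusted threshold.

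Since 3 of 6 FTY720 mice but 3 of 4 placebo mice carried the digit 3, the treatments were also compared within the digits. With the digit as a covariate, where 12.8% of all genes had an unadjusted p under 0.05 and 0 passed the adjusted threshold, 1 of 7 members had such an unadjusted p. This was Slc32a1, at a log2 fold change of -0.29 (SE 0.09, unadjusted p = 0.00635 and adjusted p = 0.354 from edgeR's model across all genes). The lists also counted differently in that fit. Genes with such an unadjusted p were 3 of 15 of glutamate uptake and metabolism (1 higher, 2 lower), 3 of 22 of synaptic vesicles, all lower, 1 of 17 of GABA neuron identity, lower, and 0 of 6 of GABA uptake and breakdown. Of the region lists, 2 of 12 cortical, 2 of 8 striatal and 1 of 6 hindbrain genes were lower, 2 of 12 cerebellum genes higher and 0 of 7 thalamus genes either. Of the other cell types, 5 of 8 oligodendrocyte, 2 of 8 neuron, 1 of 9 astrocyte and 1 of 8 microglia genes were lower, and 7 of 8 endothelial and 1 of 7 choroid plexus genes higher. Among the 6 digit 3 mice, where 7.31% of all genes had an unadjusted p under 0.05, Slc32a1 was at 99.2, 105 and 115 CPM with FTY720 and 121, 138 and 139 CPM with placebo. The treatments did not overlap there, at a log2 fold change of -0.31 (SE 0.11, edgeR p = 0.0191, adjusted p = 0.648) and an exact permutation p of 0.1, the smallest possible. Slc17a7 did not overlap either in those mice, with 415 to 579 CPM against 583 to 636 CPM, at -0.26 (SE 0.13) and an exact permutation p of 0.1. These 2 of 7 members stand beside 12.9% of all genes tested whose treatments did not overlap in the digit 3 mice.

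The same digit 3 mice differed in GC trend. The 3 with FTY720 were at -0.564, -0.336 and -0.261, and the 3 with placebo at -0.223, 0.133 and 0.158. With GC and length trends removed and the digit as a covariate, Slc32a1 was at 0.02 (SE 0.06, adjusted p = 0.971) and Slc17a7 at -0.01 (SE 0.09, adjusted p = 0.99). In those 6 mice treatment and GC trend did not overlap, and they cannot be told apart. The treatment effects in the 2 digits were also compared directly, although only 1 placebo mouse carried the digit 1, whose spread was assumed to be that of the other groups. No gene passed the adjusted threshold of this interaction in edgeR, with 345 at an unadjusted p under 0.05 (279 with DESeq2), and the members' adjusted p-values were all 0.99994. The members' standard errors were 0.19 to 0.44, so this test says little on whether the effects differed.

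**Figure D5:**
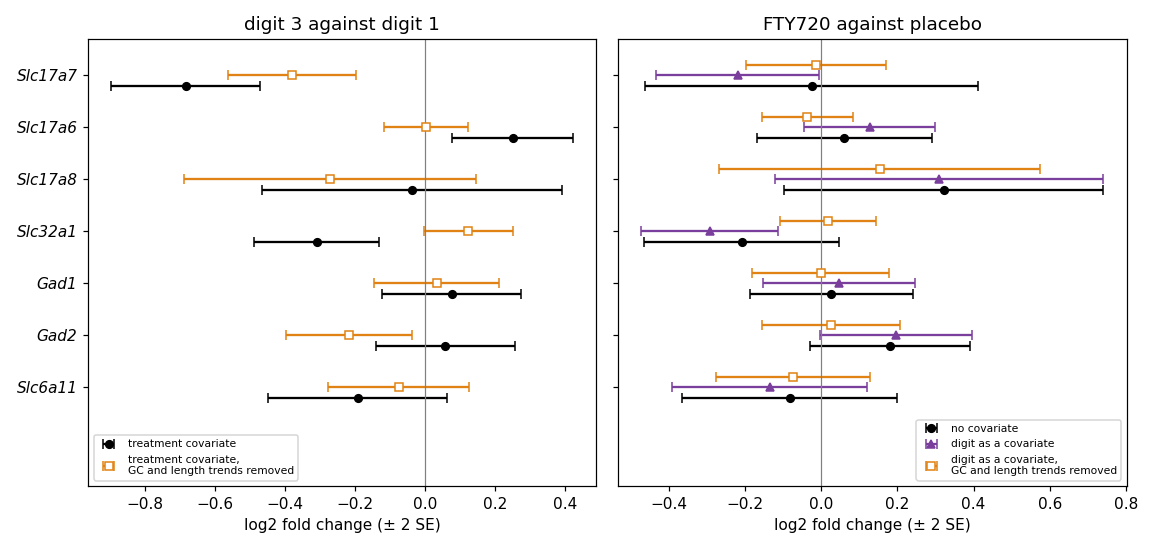
Log2 fold changes of the 7 genes with intervals of 2 standard errors, at the left for digit 3 against digit 1 and at the right for FTY720 against placebo, with open squares for the fits in which GC and length trends were removed. Only Slc17a7 keeps an interval below 0 in both digit fits, at -0.68 and -0.38, and Slc32a1 moves from -0.31 to 0.12.

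The genes whose levels followed each member most closely over the 10 mice were listed from 14044 protein-coding genes of at least 1 CPM, as a description over libraries that share the digits and the GC trend. Slc17a7 was followed by Adgrb2, Cpne5 and Rnf10, with Pearson's r of 0.986 to 0.984, and Slc32a1 by Ino80b, Mul1 and Stub1, with 0.986 to 0.976. Slc17a6 was followed by Mosmo, Lhfpl3 and Phactr4, with 0.973 to 0.97, and Slc17a8, with its few counts, by Sec23ip, Snx6 and Ahi1, with 0.897 to 0.837. Gad1 was followed by Dcun1d5, Phospho2 and Mrps30, with 0.983 to 0.965, Gad2 by Tgfbr2, Cbll1 and Dctn4, with 0.962 to 0.908, and Slc6a11 by Rai1, Apc2 and Hs6st1, with 0.969 to 0.964. Among the members themselves, Slc17a7 and Slc17a6 had an r of -0.819 and Slc32a1 and Slc17a6 one of -0.835. Gad1 had an r of -0.09 with Slc32a1 and of 0.333 with Gad2, although GABA neurons use all 3 genes, and Gad1 and Slc6a11 had an r of -0.91.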

How the data were processed

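Brain RNA of 10 mice was sequenced, 6 with FTY720 and 4 with placebo. The authors called bases with Casava 1.8, mapped read pairs with Hisat2 2.0.5 onto GRCm38 and deposited whole-number counts per gene without normalization. The submitters' processing notes also name fastp and featureCounts 1.5.0-p3, with no strand setting. For the second table, the authors derived FPKM from the same counts, the gene length and a library total that is not the column total. They also deposited each gene's length in bases. Mice were grouped by the labels, and the digit was read from the titles.

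After filterByExpr and TMM, quasi-likelihood fits of edgeR 4.0.16 in R 4.3.3 were used, with Benjamini-Hochberg adjustment over 17665 genes. Standard errors are the log2 fold change over the square root of F. Exact permutation tests used log2 CPM (prior count 2) or log2 ratios of FPKM over 210 splits, or 20 within 6 mice. Alternatives were DESeq2 1.42.0, RLE and upper-quartile scaling, other filters on low counts, limma-voom and limma 3.58.1 on log2(FPKM + 0.1) and log2(FPKM + 1), other covariates, digit 3 or FTY720 mice alone and each mouse left out. Removal of GC and length trends (longest GENCODE transcript per gene, lowess), in the fits and the ratios, and the digit as a covariate with each mouse left out, were added after seeing the data. The tests were tried on simulated data. The members and the 17 gene lists were chosen with earlier results of these data known. Named genes were all members, up to 4 per list with the smallest p between the digits, up to 4 per list with an unadjusted p under 0.05 for treatment, and the 3 genes most like each member. Also named, outside that rule, were Hoxa2 and Hoxb3, which were not tested, for their counts of 0, and Camk2a for its part in a summed level. No 2 of the 10 libraries agreed within sampling noise (chi-square per degree of freedom of 16.1 or more over 45 pairs). Some results for single genes of these lists and ratios are not reported here.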

Additional observations from a re-analysis of the deposited data

Results flagged for a closer look

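In 40 groups of 4 to 6 mice, the gap of the highest or lowest mouse was compared with the range of its group. Chance flags about 1 in 20 such groups, and 3 values stood out. The Slc6a11 level of P3-612, 260 CPM, was far below the other 3 placebo mice, which were at 322 to 332 CPM. The log2 ratio of Slc17a6 to Slc17a7 in P1-623, the only placebo mouse with the digit 1, was -3.36, below the other placebo mice at -2.49 to -2.40. In F3-609 the same ratio was -1.63, above the other digit 3 mice. These 2 mice were also at the ends of the libraries' GC trend, with 0.487 in P1-623 and -0.564 in F3-609. Slc17a6 and Slc17a7 differ in GC content, at 42.9% and 58.5%. The part of that trend in their ratios was not tested in single mice.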

How the results depend on the processing

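The call of Slc17a7 between the digits held in all 21 other settings listed and without GC and length trends (-0.74 to -0.38), while the Slc17a6 over Slc17a7 ratio was 0.72 to 0.92 without 1 mouse. Its unadjusted exact permutation p was then 0.00794 to 0.0119, the smallest that 9 mice allow, which over 8 tests adjusts to 0.0635 to 0.0952, so these tests could not pass for 1 ratio alone, nor could that of 3 against 3 FTY720 mice (0.95). The count of members called between the digits was 1 without treatment as a covariate, with FTY720 mice alone and with GC and length trends removed (beside 3694, 3125 and 4609 of 17665 genes), and 1 to 3 without a mouse (1 without F1-918, F3-609 or P1-623). Genes called between the digits numbered 3125 with FTY720 mice alone and 2613 (without P1-623) to 6012 without a mouse, 2901 without F3-609. Without GC and length trends, Slc32a1 (0.12) and Gad2 (-0.22) turned between the digits, as did Slc17a6 (-0.0375), Slc17a7 (0.0924) and Gad1 (-0.0097) for treatment, and, with the digit as a covariate, Slc17a6 (-0.0365), Slc32a1 (0.0178) and Gad1 (-0.0013). So did the Slc17a6 over Slc17a7 ratio for treatment (-0.1192), while between the digits that ratio was 0.39 and Gad1 over Gad2 passed the threshold (0.262). Gad2 turned with FTY720 mice alone (-0.0005, mean log2 CPM -0.0041). The ratio of Slc32a1 to the vesicular glutamate transporters was 0.26 in FTY720 mice alone (exact permutation p = 0.2) and 0.17 to 0.32 without a mouse.

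For treatment, genes with an unadjusted p under 0.05 numbered 1117 without a filter, 2256 with the digit as a covariate, 1292 in digit 3 mice, 1143 with GC and length trends removed beside the digit, and 275 to 3695 without a mouse, with or without the digit. Members with such a p numbered 1 with the digit as a covariate, 1 in digit 3 mice and 0 to 4 without a mouse (4 without F3-612 and with the digit as a covariate, beside 1641 of 17665 genes). Genes past the adjusted threshold numbered 0 to 2 without a mouse. Without a mouse, treatment values ranged from -0.0135 to 0.17 for Slc17a6, -0.27 to 0.15 for Slc17a7 and -0.0134 to 0.0823 for Gad1, and Slc17a8 between the digits from -0.22 to 0.11. For treatment, the Slc17a6 over Slc17a7 ratio ranged from -0.11 to 0.24 without a mouse, and was 0.36 in digit 3 mice alone. The Gad1 over Gad2 ratio ranged without a mouse from -0.25 (exact permutation p = 0.0238 without P3-904) to -0.0897 for treatment. Between the digits it ranged from -0.0064 to 0.13. The cause of these shifts was not tested. No paired analysis was possible because FTY720 and placebo mice share only 1 number. Slc17a8 had the fewest counts, 45 to 93.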
